A study of Homo sapiens with 8 samples.

Results

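The genes described here carry glucose into the cell, break it down to pyruvate, and decide whether pyruvate becomes lactate or is oxidised in the mitochondrion. They were chosen by symbol, as 39 rows present in both deposited expression tables, out of 19479 genes listed. They comprise 7 glucose transporters, 3 hexokinases, 7 genes of upper glycolysis, 3 genes that set fructose-2,6-bisphosphate, 7 genes of lower glycolysis, 4 genes of lactate handling and 8 genes of pyruvate entry and oxidation. RNA came from AC16, a proliferating human cell line that goes back to a fusion of adult ventricular heart muscle cells and transformed fibroblasts, and 8 libraries fall into 4 groups of 2. AC16 cells were held at 5 mM or at 25 mM D-glucose in DMEM with fetal serum for 3 passages or more. In the groups called 5 to 50 mM and 25 to 50 mM, glucose was then brought to 50 mM for 24 h, with 45 mM or 25 mM added. All 4 groups share the line, the serum, penicillin and streptomycin, and the controls stayed at 5 mM or 25 mM. No sugar that cells do not use was given as an osmotic control in these 8 libraries. Glucose and osmolarity therefore cannot be told apart in the rises or between maintenance at 5 mM and at 25 mM.

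Glucose crosses the membrane through SLC2A family carriers (GLUT proteins), is trapped by hexokinase as glucose 6-phosphate, and is committed to glycolysis by phosphofructokinase, whose strongest activator is fructose-2,6-bisphosphate. Pyruvate, the product, is either reduced to lactate and exported, or carried into mitochondria and turned into acetyl-CoA by the pyruvate dehydrogenase complex, which kinases of the PDK family switch off and phosphatases of the PDP family switch on. The adult heart runs mainly on fatty acids, while fibroblasts and dividing cell lines lean on glycolysis and lactate release.

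Library totals lay between 21538898 and 27372851 reads, and 3 reads on 1 kb of gene correspond to 0.11 to 0.139 RPKM (reads per kilobase of gene, scaled to library size). Values of a group are given below as its 2 libraries in the order of their replicate numbers, which are 1 and 3 at 5 mM, 1 and 2 at 5 to 50 mM, 1 and 3 at 25 mM, and 2 and 3 at 25 to 50 mM. The series describes replicates as technical, so p-values reflect only library-to-library spread, which may be technical. Libraries of every group differed by more than counting error, and chi-square divided by its degrees of freedom ran from 2.54 at 5 to 50 mM to 15.92 at 5 mM. The label calls these cells cardiomyocytes, but 15 of 21 listed cardiomyocyte markers were under 1 RPKM in all 8 libraries, and MYL2 and NKX2-5 were at 0 in all of them. Of 18 fibroblast markers, 17 were at 1 RPKM or more in all libraries, with COL1A1 at 963 to 1634 RPKM and VIM at 3422 to 4684 RPKM. The cells are therefore called AC16 here, and in bulk RNA a lower level in every cell and fewer cells with the transcript cannot be told apart.

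Most of the pathway was abundant, and its level differed between cells kept at 25 mM and at 5 mM glucose, while no member passed the test over 24 h at 50 mM. Summed, the 39 genes held 2.21% and 2.14% of reads at 5 mM and 2.12% and 2.17% at 5 to 50 mM. They held 1.8% and 1.78% at 25 mM, and 1.87% and 1.91% at 25 to 50 mM, so the 4 libraries that started from 25 mM all lay below the 4 that started from 5 mM. By limma, with p-values adjusted over every tested gene (Benjamini-Hochberg), 20 of the 37 members past the filter on low values were lower at 25 mM than at 5 mM, 1 was higher and 16 did not pass. In that comparison 39.1% of all 11941 genes tested were called, 22.1% lower and 17% higher. At 50 mM, cells that came from 25 mM had 18 lower members, 1 higher and 18 that did not pass, where 41.4% of all genes were called, 23.3% lower and 18.1% higher. In the rise from 5 to 50 mM 0 of 37 members were called, with 0.329% of 11849 genes called, and in the rise from 25 to 50 mM 0 of 37, with 0.00876% of 11422 genes called. Log2 differences and folds below are of RPKM + 1, which understates the change of scarce genes. In levels, all 4 libraries from 25 mM lay below all 4 from 5 mM for 18 of the 39 members and above them for 2, where 26.5% and 21.9% of the 11941 genes did so. SLC2A4, the insulin-responsive carrier of heart and muscle, and HKDC1, a minor hexokinase, were under the filter of 1 RPKM in every comparison.

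**Figure D1:**
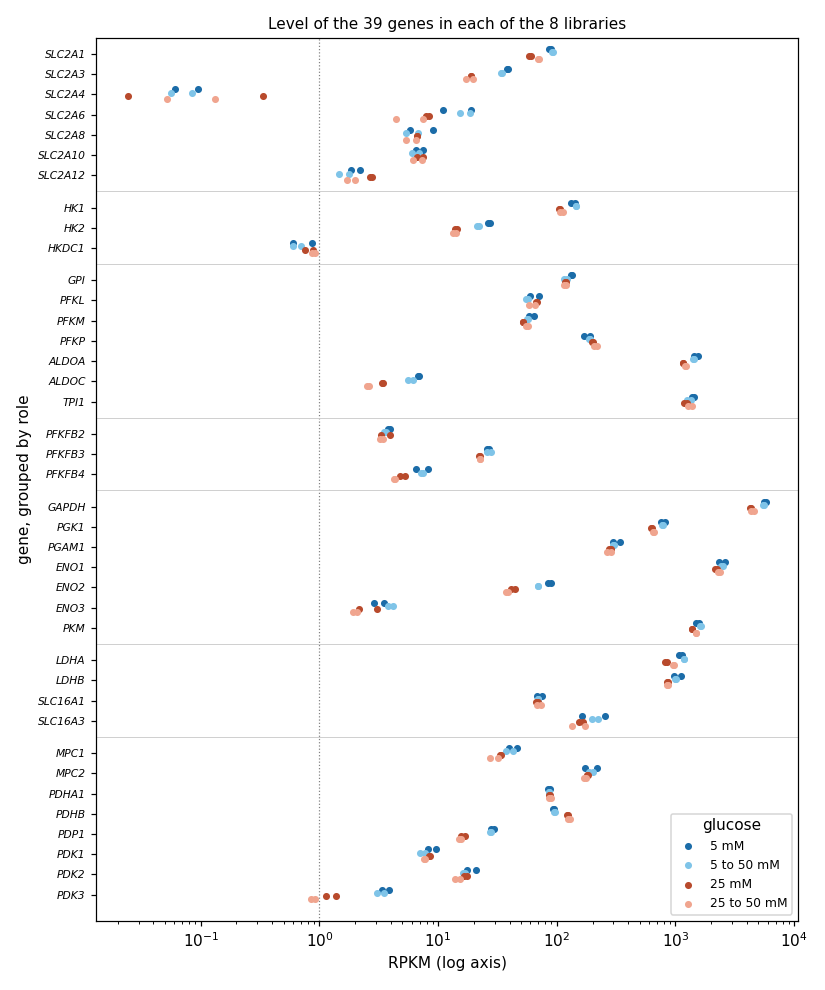
RPKM of each of the 39 genes (rows, grouped by role) on a log axis, with 1 point per library coloured by glucose group and a dotted line at 1 RPKM. Levels span from 0.0245 RPKM for SLC2A4 to 5835 RPKM for GAPDH, and the red points of cells kept at 25 mM lie left of the blue points of cells kept at 5 mM for 18 genes, right of them for PFKP and PDHB (26.5% and 21.9% of all genes tested).

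The 250 bases before the annotated start are shown for 5 members called in the comparison of 25 mM with 5 mM. HK2, ENO2, PDK3 and LDHA are among the lower ones, and PDHB is the only higher one. They were chosen after the values were seen. The sequences are those of RefSeq on GRCh38.p14, given 5′ to 3′ on the gene's strand, at chr2:74833877-74834126 on the plus strand for HK2, chr12:6914330-6914579 on the plus strand for ENO2, chrX:24465036-24465285 on the plus strand for PDK3, chr11:18394313-18394562 on the plus strand for LDHA and chr3:58433833-58434082 on the minus strand for PDHB. Capitals mark ACGTG on either strand, the core that hypoxia-inducible factors and many basic helix-loop-helix factors are known to bind, and CACGTG holds a match on each strand.
HK2: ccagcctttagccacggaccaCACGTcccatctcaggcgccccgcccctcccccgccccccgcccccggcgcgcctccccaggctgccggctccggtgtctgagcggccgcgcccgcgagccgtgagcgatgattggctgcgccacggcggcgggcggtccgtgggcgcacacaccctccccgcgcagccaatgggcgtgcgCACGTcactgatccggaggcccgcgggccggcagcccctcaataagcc
ENO2: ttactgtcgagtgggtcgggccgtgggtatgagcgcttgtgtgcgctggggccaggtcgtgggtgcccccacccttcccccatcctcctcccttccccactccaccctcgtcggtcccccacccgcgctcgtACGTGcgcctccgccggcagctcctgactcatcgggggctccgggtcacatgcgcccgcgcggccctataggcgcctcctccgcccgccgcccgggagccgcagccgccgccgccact
PDK3: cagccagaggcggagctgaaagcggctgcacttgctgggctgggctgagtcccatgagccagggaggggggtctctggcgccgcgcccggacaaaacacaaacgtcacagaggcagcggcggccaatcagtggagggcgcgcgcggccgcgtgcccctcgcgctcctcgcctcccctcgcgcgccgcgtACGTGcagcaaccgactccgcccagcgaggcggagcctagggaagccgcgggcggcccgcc
LDHA: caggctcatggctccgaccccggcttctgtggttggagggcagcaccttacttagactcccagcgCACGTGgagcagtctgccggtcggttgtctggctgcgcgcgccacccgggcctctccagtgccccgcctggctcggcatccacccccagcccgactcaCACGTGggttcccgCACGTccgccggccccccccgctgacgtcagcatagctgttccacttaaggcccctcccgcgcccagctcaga
PDHB: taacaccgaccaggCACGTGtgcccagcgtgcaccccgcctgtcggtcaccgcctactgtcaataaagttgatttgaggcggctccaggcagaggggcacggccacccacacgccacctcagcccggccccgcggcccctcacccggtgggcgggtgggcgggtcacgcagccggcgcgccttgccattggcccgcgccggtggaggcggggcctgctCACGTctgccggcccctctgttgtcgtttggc
ACGTG was found 2 times before HK2, 1 time each before ENO2 and PDK3, 5 times before LDHA and 3 times before PDHB. All 5 printed promoters thus hold it, while lower members without it, among them SLC2A1, HK1 and PFKFB4, are not printed. The 5 therefore do not stand for the members as a whole. A promoter entry was matched for 34 of the 39 members, and PDP1, PFKFB2, SLC16A1, SLC2A3 and SLC2A4 had none. ACGTG on either strand lay in 9 of 18 promoters (50.0%) of members lower at 25 mM, in 2 of 16 (12.5%) of the other members, and in 20.9% of the 15426 promoters of listed genes. The other 3 motifs searched differed by fewer percentage points between lower and other members: CACGTG, itself a form of ACGTG, was in 16.7% and 6.25% (7.86% of all), CCAAT in 38.9% and 43.8% (34.7% of all) and GGGCGG in 72.2% and 68.8% (56.7% of all). A match describes letters in this window and says nothing of a bound factor. The 2 other members with ACGTG were SLC2A10 and PDHB.

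SLC2A1 (Entrez Gene 6513), which encodes GLUT1, the carrier for basal uptake, was the most abundant transporter. It stood at 85.7 and 89.9 RPKM at 5 mM, 90.7 and 92.9 RPKM at 5 to 50 mM, 60.8 and 57.9 RPKM at 25 mM and 71.3 and 69.6 RPKM at 25 to 50 mM. All 4 libraries from 25 mM lay below all 4 from 5 mM, and both 25 to 50 mM libraries lay above both 25 mM libraries. The log2 difference of 25 mM from 5 mM was -0.56 (SE 0.05, 0.68-fold, adjusted p = 0.000128), and at 50 mM it was -0.38 (SE 0.05, 0.77-fold, adjusted p = 0.000809). SLC2A3 (Entrez Gene 6515) encodes GLUT3, a carrier of high affinity. Its level was 38.2 and 38.6 RPKM at 5 mM, 34.7 and 33.6 RPKM at 5 to 50 mM, 19.1 and 18.9 RPKM at 25 mM and 17.2 and 19.8 RPKM at 25 to 50 mM. Groups that started from 5 mM and from 25 mM did not overlap, with 0.507-fold the level at 25 mM (log2 difference -0.98, SE 0.07, adjusted p = 4.98e-05) and 0.554-fold at 50 mM (-0.85, SE 0.07, adjusted p = 9.2e-05). Reads of SLC2A3 may be shared with SLC2A14, a near copy, which was listed at 0 to 0.0503 RPKM.

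SLC2A6, a carrier found on lysosomes, was the transporter with the widest spread between replicates. It read 11 and 19.1 RPKM at 5 mM, 18.6 and 15.4 RPKM at 5 to 50 mM, 8.44 and 7.85 RPKM at 25 mM and 7.5 and 4.41 RPKM at 25 to 50 mM. Even so the 4 libraries from 25 mM were all below the 4 from 5 mM, and at 50 mM the difference passed (log2 difference -1.40, SE 0.27, 0.378-fold, adjusted p = 0.00473), while at 25 against 5 mM it did not (adjusted p = 0.0582). SLC2A8, an intracellular carrier, was at 5.83 and 9.07 RPKM at 5 mM, 6.81 and 5.4 RPKM at 5 to 50 mM, 6.67 and 6.7 RPKM at 25 mM and 6.47 and 5.36 RPKM at 25 to 50 mM. Its groups overlapped except that both 25 to 50 mM libraries lay below both 25 mM libraries. SLC2A10 ranged from 6.01 to 7.46 RPKM and SLC2A12 from 1.46 to 2.75 RPKM, and neither passed in any comparison. SLC2A4 gave 1 to 14 reads a library, 0.0245 to 0.337 RPKM, where 3 reads of this gene are worth up to 0.091 RPKM.

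Among hexokinases HK1, the form bound to mitochondria in most tissues, supplied most of the message. It was measured at 142 and 131 RPKM at 5 mM, 145 and 146 RPKM at 5 to 50 mM, 106 and 105 RPKM at 25 mM and 112 and 106 RPKM at 25 to 50 mM. All libraries from 25 mM were below all from 5 mM, by -0.37 on the log2 scale at 25 against 5 mM (SE 0.05, adjusted p = 0.00132) and by -0.42 at 50 mM (SE 0.05, adjusted p = 0.000695). HK2 (Entrez Gene 3099, chr2:74834127-74893359 in GRCh38.p14), the insulin- and hypoxia-inducible hexokinase of muscle and tumours, was lower still. HK2 had 26.4 and 27.5 RPKM at 5 mM, 21.2 and 22.3 RPKM at 5 to 50 mM, 14.4 and 14 RPKM at 25 mM and 14.2 and 13.3 RPKM at 25 to 50 mM. The groups from 5 mM and from 25 mM did not overlap, and neither did 5 mM and 5 to 50 mM. The log2 difference of 25 mM from 5 mM was -0.88 (SE 0.065, 0.545-fold, adjusted p = 5e-05) and that at 50 mM -0.63 (SE 0.065, 0.647-fold, adjusted p = 0.000244). HKDC1 stood at 0.594 to 0.916 RPKM, from 38 to 65 reads.

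In upper glycolysis the enzymes of the aldolase step differed most. ALDOA, the main aldolase and number 66 of 19479 genes by mean level, gave 1436 and 1541 RPKM at 5 mM, 1395 and 1432 RPKM at 5 to 50 mM, 1160 and 1153 RPKM at 25 mM and 1212 and 1237 RPKM at 25 to 50 mM. It was lower in all 4 libraries from 25 mM, at 0.777-fold (log2 difference -0.36, SE 0.05, adjusted p = 0.000707) and, at 50 mM, 0.866-fold (-0.21, SE 0.05, adjusted p = 0.00934), where GC correction ended the call. ALDOC, the aldolase of brain, was scarce, with 6.78 and 6.84 RPKM at 5 mM, 5.59 and 6.09 RPKM at 5 to 50 mM, 3.42 and 3.36 RPKM at 25 mM and 2.53 and 2.6 RPKM at 25 to 50 mM. No 2 of the 4 groups overlapped for ALDOC, and the log2 differences were -0.83 (SE 0.08, adjusted p = 0.000186) at 25 against 5 mM and -0.94 (SE 0.08, adjusted p = 9.39e-05) at 50 mM.

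GPI, which turns glucose 6-phosphate into fructose 6-phosphate, read 133 and 134 RPKM at 5 mM, 116 and 122 RPKM at 5 to 50 mM, 118 and 119 RPKM at 25 mM and 116 and 120.2 RPKM at 25 to 50 mM. Both 5 mM libraries lay above the other 6, and 25 mM was lower by a log2 difference of -0.17 (SE 0.05, adjusted p = 0.0198). That call was lost in 6 of 19 alternatives, among them median centring, quantile normalization and GC correction (adjusted p up to 0.0896). Triose phosphate isomerase, encoded by TPI1, gave 1420 and 1375 RPKM at 5 mM, 1247 and 1349 RPKM at 5 to 50 mM, 1253 and 1177 RPKM at 25 mM and 1278 and 1367 RPKM at 25 to 50 mM. Only 5 mM against 25 mM passed (-0.20, SE 0.06, adjusted p = 0.0279), and at 50 mM the groups overlapped. The TPI1 call was lost in 7 of 19 alternatives, among them no filter, median centring and no trend (adjusted p up to 0.16). The 3 phosphofructokinase subunits did not move together. PFKM, the muscle subunit, was at 64.4 and 58.6 RPKM at 5 mM, 55.9 and 56.8 RPKM at 5 to 50 mM, 52.4 and 52.2 RPKM at 25 mM and 54.8 and 56.9 RPKM at 25 to 50 mM, lower at 25 than at 5 mM (log2 difference -0.23, SE 0.06, adjusted p = 0.0163). PFKL, the liver subunit, at 59 and 70.6 RPKM, 56.9 and 55 RPKM, 67.7 and 66.7 RPKM, and 66 and 58.2 RPKM in the same order of groups, passed in no comparison. PFKP, the platelet subunit and the most abundant of them at 171 to 219 RPKM, lay higher in all 4 libraries from 25 mM than in all 4 from 5 mM but did not pass (adjusted p = 0.0883 at 25 against 5 mM and 0.0559 at 50 mM).

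Enzymes of the PFKFB family make and remove fructose-2,6-bisphosphate. PFKFB3, the form with the highest ratio of kinase to phosphatase activity, gave 25.6 and 27.1 RPKM at 5 mM, 25.9 and 28 RPKM at 5 to 50 mM, 22.1 and 22.6 RPKM at 25 mM and 22.5 and 22.5 RPKM at 25 to 50 mM. PFKFB4, a hypoxia-inducible form, gave 6.5 and 8.18 RPKM, 7.42 and 7.11 RPKM, 4.78 and 5.24 RPKM, and 4.26 and 4.37 RPKM in the same order. For both genes all libraries from 25 mM lay below all from 5 mM. The log2 difference of PFKFB3 was -0.23 (SE 0.06, adjusted p = 0.0225) at 25 against 5 mM and -0.25 (SE 0.06, adjusted p = 0.016) at 50 mM, and that of PFKFB4 -0.47 (SE 0.11, adjusted p = 0.0119) and -0.64 (SE 0.11, adjusted p = 0.0027). PFKFB2, the cardiac form, was low, at 3.81 and 3.92 RPKM at 5 mM, 3.52 and 3.64 RPKM at 5 to 50 mM, 3.91 and 3.32 RPKM at 25 mM and 3.44 and 3.26 RPKM at 25 to 50 mM, and passed nowhere.

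Lower glycolysis held the most abundant members. GAPDH (Entrez Gene 2597), which makes 1,3-bisphosphoglycerate and NADH and often serves as a reference gene, ranked 5 of 19479 genes by mean level. Its RPKM was 5835 and 5618 at 5 mM, 5428 and 5548 at 5 to 50 mM, 4345 and 4226 at 25 mM and 4323 and 4580 at 25 to 50 mM. All libraries from 25 mM were below all from 5 mM, with log2 differences of -0.42 (SE 0.05, adjusted p = 0.00044) at 25 against 5 mM and -0.30 (SE 0.05, adjusted p = 0.00199) at 50 mM, but after quantile normalization GAPDH differed by 0.08 in the other direction in both (adjusted p = 0.187 and 0.163). PGK1, the next enzyme and the first to yield ATP, gave 823 and 756 RPKM at 5 mM, 772 and 783 RPKM at 5 to 50 mM, 625 and 634 RPKM at 25 mM and 645 and 660.4 RPKM at 25 to 50 mM. It was lower from 25 mM by -0.33 (SE 0.05, adjusted p = 0.00153) and at 50 mM by -0.25 (SE 0.05, adjusted p = 0.00477) on the log2 scale, with no overlap. PGAM1, a phosphoglycerate mutase, ranged from 264 to 341 RPKM and ENO1, the enolase of most tissues, from 2142 to 2601 RPKM. Both were lower in each 25 mM library than in each 5 mM library, and neither passed (adjusted p = 0.0688 for PGAM1 and 0.0538 for ENO1).

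ENO2 (Entrez Gene 2026, chr12:6914580-6923697), the enolase of neurons that is also induced by hypoxia, differed by a factor close to that of SLC2A3. It stood at 88.9 and 84.5 RPKM at 5 mM, 68.9 and 69.4 RPKM at 5 to 50 mM, 40.8 and 44.7 RPKM at 25 mM and 38.6 and 37.3 RPKM at 25 to 50 mM. No 2 groups overlapped, and the order of the groups was 5 mM, 5 to 50 mM, 25 mM and 25 to 50 mM from high to low. The 25 mM level was 0.498-fold that at 5 mM (log2 difference -1.005, SE 0.06, adjusted p = 1.73e-05), and at 50 mM the ratio was 0.555 (-0.85, SE 0.06, adjusted p = 3.33e-05). ENO3, the muscle enolase, was scarce at 2.88 and 3.47 RPKM, 3.77 and 4.16 RPKM, 2.15 and 3.05 RPKM, and 2.09 and 1.93 RPKM in the order 5 mM, 5 to 50 mM, 25 mM and 25 to 50 mM. It was lower at 50 mM after 25 mM (log2 difference -0.72, SE 0.14, adjusted p = 0.00445, and -0.44 after quantile normalization), while at 25 against 5 mM its groups overlapped. PKM, pyruvate kinase, whose M1 and M2 splice forms share 1 row here, read 1583 and 1493 RPKM, 1608 and 1652 RPKM, 1385 and 1371 RPKM, and 1490 and 1496 RPKM in that order. It was lower at 25 than at 5 mM by -0.16 on the log2 scale (SE 0.04, adjusted p = 0.0237) and did not pass at 50 mM (adjusted p = 0.0504). The PKM call was lost in 7 of 19 alternatives, among them median centring, no trend and GC correction (adjusted p up to 0.106). Reads of several of these genes may be shared with processed pseudogenes, of which GENCODE release 29 names 62 after GAPDH, 13 after PGAM1, 6 after LDHA, 5 after PKM and 4 each after ENO1 and TPI1.

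Both lactate dehydrogenase subunits were abundant and lower in cells from 25 mM. LDHA (Entrez Gene 3939, chr11:18394563-18408425), the subunit that favours lactate formation, gave 1124 and 1070 RPKM at 5 mM, 1186 and 1177 RPKM at 5 to 50 mM, 819 and 848 RPKM at 25 mM and 949 and 974 RPKM at 25 to 50 mM. Its 4 groups did not overlap, and each group at 50 mM lay above its own control. The log2 difference was -0.40 (SE 0.04, adjusted p = 0.000332) at 25 against 5 mM and -0.30 (SE 0.04, adjusted p = 0.00129) at 50 mM. LDHB, the heart subunit, stood at 1104 and 981 RPKM, 1009 and 987 RPKM, 841 and 867 RPKM, and 845 and 864 RPKM in the same order. It was lower from 25 mM in all libraries, by -0.285 (SE 0.06, adjusted p = 0.00694) and by -0.22 (SE 0.06, adjusted p = 0.0186), a call lost with median centring and in 5 other alternatives of 19. The lactate carriers did not pass in any comparison: SLC16A1 (MCT1) ranged from 66.3 to 74.5 RPKM, and SLC16A3 (MCT4), the exporter of glycolytic cells, from 135 to 256 RPKM with 163 and 256 RPKM in the 2 libraries at 5 mM. EMB and BSG, which chaperone these carriers to the membrane, were at 3.14 to 4.6 RPKM and 290.5 to 490.1 RPKM. BSG was lower at 25 than at 5 mM (0.751-fold, adjusted p = 0.0267), with 373 and 490.1 RPKM in the libraries at 5 mM. It was not called at 50 mM. EMB was called lower only at 50 mM after 25 mM (0.802-fold, adjusted p = 0.0223).

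At the entry of pyruvate into mitochondria, MPC1, a subunit of the pyruvate carrier, was at 39.8 and 46.1 RPKM at 5 mM, 37.6 and 42.9 RPKM at 5 to 50 mM, 34.2 and 33.5 RPKM at 25 mM and 27.2 and 31.8 RPKM at 25 to 50 mM. All libraries from 25 mM were below all from 5 mM (log2 difference -0.33, SE 0.10, adjusted p = 0.0358, and at 50 mM -0.44, SE 0.10, adjusted p = 0.0112). Its partner MPC2 read 173 and 218 RPKM, 202 and 187 RPKM, 180.2 and 184 RPKM, and 177 and 169 RPKM in the same order and did not pass. PDHB (Entrez Gene 5162, chr3:58427630-58433832), the beta subunit of the E1 enzyme of pyruvate dehydrogenase, was the 1 member that was higher. PDHB stood at 94.3 and 93 RPKM at 5 mM, 95.3 and 95.8 RPKM at 5 to 50 mM, 121 and 125 RPKM at 25 mM and 124 and 129 RPKM at 25 to 50 mM. The groups from 5 mM and from 25 mM did not overlap, with a log2 difference of 0.39 (SE 0.04, 1.31-fold, adjusted p = 0.000389) and at 50 mM of 0.40 (SE 0.04, 1.32-fold, adjusted p = 0.000321). PDHA1, the alpha subunit that the kinases phosphorylate, kept between 83.7 and 89.6 RPKM in all 8 libraries and passed in no comparison.

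An activator and an inhibitor of the pyruvate dehydrogenase complex were both lower in cells from 25 mM. PDP1, a phosphatase that activates it, gave 29.7 and 28.1 RPKM at 5 mM, 28 and 27.5 RPKM at 5 to 50 mM, 15.5 and 17 RPKM at 25 mM and 15 and 15.6 RPKM at 25 to 50 mM. Libraries from 25 mM lay at 0.577-fold (log2 difference -0.79, SE 0.07, adjusted p = 0.000103) and at 50 mM at 0.567-fold (-0.82, SE 0.07, adjusted p = 8.14e-05) without overlap. PDK3 (Entrez Gene 5165, chrX:24465286-24550466), an inhibitory kinase, was scarce, with 3.37 and 3.88 RPKM at 5 mM, 3.49 and 3.06 RPKM at 5 to 50 mM, 1.14 and 1.38 RPKM at 25 mM and 0.845 and 0.927 RPKM at 25 to 50 mM, from 26 to 133 reads. All libraries from 25 mM were lower, by -1.03 (SE 0.11, adjusted p = 0.000271) and at 50 mM by -1.18 (SE 0.11, adjusted p = 0.000136) on the log2(RPKM + 1) scale. That scale shrinks changes of scarce genes, and voom on recovered reads gave PDK3 -1.53 and -1.87. PDK1, the hypoxia-inducible kinase, at 9.62 and 8.29 RPKM, 7.09 and 7.82 RPKM, 8.34 and 8.62 RPKM, and 7.72 and 7.56 RPKM in the same order, did not pass, and PDK2 ranged from 14 to 20.7 RPKM and did not pass. PDK4, the kinase induced by fasting and fatty acids, was listed at 0 in all libraries but replicate 1 at 25 mM, where it was at 0.0303 RPKM.

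**Figure D2:**
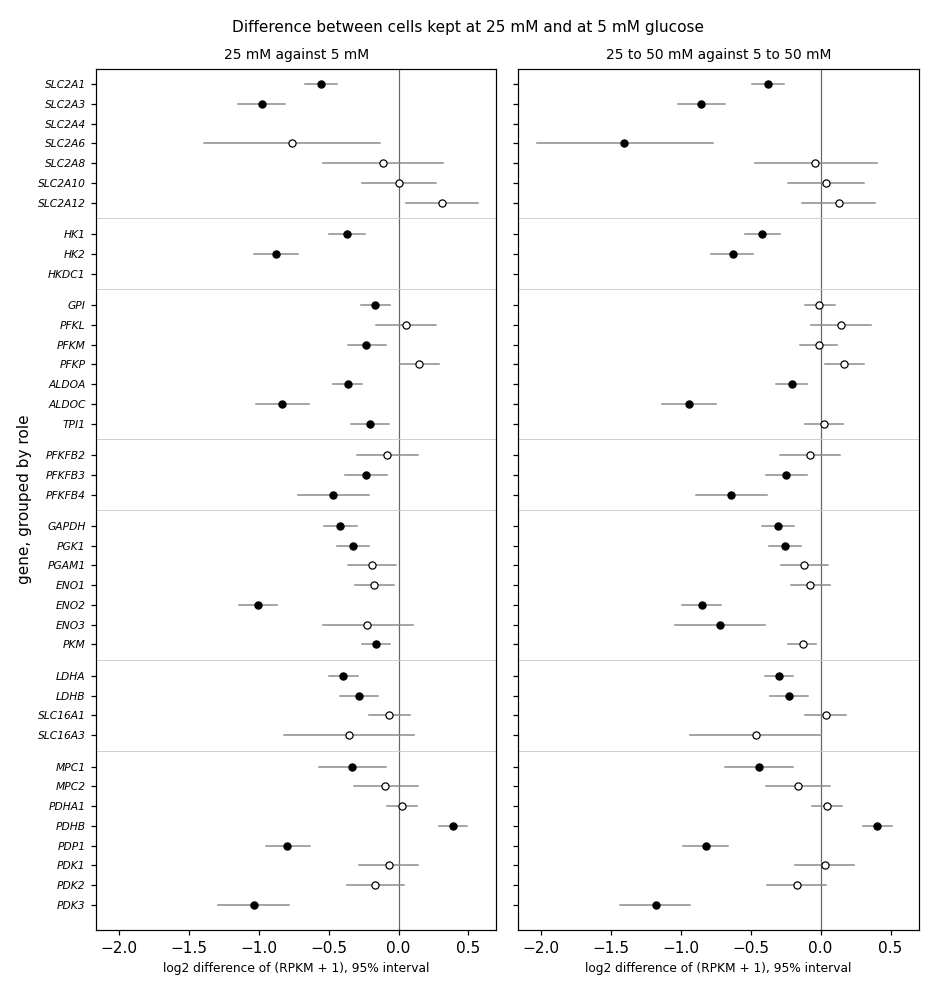
Log2 difference of (RPKM + 1), with its 95% interval, of cells kept at 25 mM from cells kept at 5 mM, without a rise (left) and at 50 mM (right), for each member by role. Filled points passed the test, and they lie left of 0 for 20 and 18 members and right of 0 only for PDHB; GAPDH lies right of 0, at 0.08, after quantile normalization.

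Seen as a list, the members had a median log2 difference of -0.23 at 25 against 5 mM, where all genes tested had -0.004, and of -0.21 at 50 mM, where all genes had -0.023. Against 22.1% of all genes lower at 25 than at 5 mM, the lower members by role were 2 of 6 tested transporters, 2 of 2 hexokinases, 5 of 7 in upper glycolysis, 2 of 3 PFKFB genes, 4 of 7 in lower glycolysis, 2 of 4 in lactate handling and 3 of 8 in pyruvate entry and oxidation. No role was tested against that share. The libraries compared at 50 mM are others than those compared at 25 against 5 mM, though 1 fit gave both tests their spread. Of the 20 and 18 lower members, 16 were the same (80% and 88.9%). The overlap among the 2639 and 2782 lower genes of the whole list was not counted. The shares of members called in both are therefore not read as particular to this pathway. GPI, PFKM, PKM and TPI1 were called only without the rise, and SLC2A6 and ENO3 only at 50 mM. After quantile normalization 19 members were lower and 3 higher at 25 against 5 mM, and 18 and 3 at 50 mM. The split over all genes depended on scaling more: at 25 against 5 mM 2032 were higher and 2639 lower, but 2648 and 2068 after quantile normalization. At 50 mM 2164 were higher and 2782 lower, but 2799 and 2377 after median centring and 3081 and 2046 after quantile normalization.

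The 2 glucose levels of maintenance were deposited in separate tables, so the table, with any difference in culture or sequencing it stands for, and maintenance glucose cannot be told apart. Other gene lists differed along with the members. Of 29 replication-dependent histone genes past the filter, 24 were lower at 25 than at 5 mM and 0 higher (median log2 difference -1.16). Within the libraries from 5 mM alone all 29 passed the filter, but within those from 25 mM only 12 did. The rest entered the test through the libraries where they are high, so the filter favoured their lower calls and the median. The summed level of all 67 listed histone genes was 360 to 449.6 RPKM at 5 mM, 547 to 552 RPKM at 5 to 50 mM, 74 to 76.8 RPKM at 25 mM and 90.2 to 93.4 RPKM at 25 to 50 mM. Of 82 cytosolic ribosomal protein genes, 36 were higher and 2 lower (median 0.15), with sums of 90220 to 91407 RPKM at 5 mM and 100721 to 101142 RPKM at 25 mM. At 50 mM 24 of the 29 histone genes were lower (median -1.28), with the same limit from the filter. There 51 ribosomal protein genes were higher and 2 lower (median 0.21). Summed markers of fibroblasts were 8645 to 9422 RPKM at 5 mM and 8140 to 8452 RPKM at 25 mM, those of cardiomyocytes 16.7 to 18.3 and 18.4 to 19.9 RPKM, and those of endothelial cells 4.73 to 5.5 and 4.02 to 4.2 RPKM, of which 8 of 9 were under 1 RPKM in all libraries and 2 at 0. Single markers differed in both directions beneath these sums. Of 18 fibroblast markers 7 were higher at 25 than at 5 mM, among them COL5A1 (log2 difference 1.16), and 6 lower, among them S100A4 (-1.08) and FAP (-1.06), and at 50 mM 5 were higher and 7 lower. Of 5 cardiomyocyte markers past the filter 2 were higher, TNNC1 (0.75) and SLC8A1 (0.69), and 2 lower, GATA4 (-1.52) and NPPA (-0.60). Within the libraries from 5 mM alone 4 cardiomyocyte markers passed the filter, and within those from 25 mM alone 3. The fibroblast markers that passed were 18 and 17. The filter may thus have favoured some of these calls. Summed macrophage markers were 245 to 254 RPKM at 5 mM, 218 to 229 RPKM at 5 to 50 mM, 93.3 to 93.4 RPKM at 25 mM and 86.9 to 87.9 RPKM at 25 to 50 mM, with 7 of 10 under 1 RPKM in all libraries. They were led by CD68, a lysosomal protein at 85.1 to 251 RPKM, while the pan-leukocyte marker PTPRC was at 0.0856 to 0.214 RPKM. Of 3 tested macrophage markers 2 were lower at 25 than at 5 mM, CD68 (-1.42) and CSF1R (-0.67). All 3 passed the filter within the libraries from 5 mM alone, but only 2 within those from 25 mM. The filter may thus have favoured lower values among the macrophage markers. The part of histone, ribosomal or marker RNA in the lower levels of glycolytic genes was not tested. Leaving out 25 mM replicate 1 reduced the members called at 25 against 5 mM from 21 to 13, of which 12 were lower. The 8 calls lost were those of GPI, PFKM, TPI1, PFKFB3, PFKFB4, PKM, LDHB and MPC1. At 50 mM, leaving out 25 to 50 mM replicate 2 or 5 to 50 mM replicate 2 lost ALDOA, PFKFB3, LDHB and MPC1.

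The rise from 5 to 50 mM compares cells given 24 h of high glucose with their own control. The fitted change was higher for 10 members and lower for 27, with a median of -0.06 against -0.028 over all genes, and 4 had an unadjusted p under 0.05, all lower: SLC2A3, HK2, GPI and ENO2. Over all genes 5.36% were lower and 5.16% higher at that unadjusted level. ENO2 had a log2 change of -0.32 (SE 0.06, 95% interval -0.47 to -0.18, adjusted p = 0.161). HK2 changed by -0.30 (SE 0.07, interval -0.48 to -0.12, adjusted p = 0.269), and SLC2A3 and GPI by -0.16 and -0.17 (adjusted p = 0.453 and 0.391). The member with the largest fitted change in the other roles was SLC2A8 among transporters (-0.23, and 0.05 without 5 mM replicate 3), PFKL (-0.20), PFKFB2 (-0.09), LDHA (0.11, interval -0.02 to 0.24) and PDK1 (-0.23), with adjusted p from 0.549 to 0.83. Voom on recovered reads called 0 members. Leaving out a 5 mM library changed the calls: without replicate 1 limma called ENO2, HK2, PFKL and PGAM1 lower, and without replicate 3 it called ENO2 lower and SLC2A6 and SLC16A3 higher. The spread then comes from the 5 to 50 mM pair alone, whose chi-square per degree of freedom was 2.54 against 15.92 for the 5 mM pair, so these calls do not carry the spread seen at 5 mM and none is taken as a result.

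The rise from 25 to 50 mM likewise sets cells against their own control, in cells already kept in high glucose. It added 25 mM glucose in place of 45 mM. Fitted changes were higher for 16 members and lower for 21 (median -0.04, against -0.035 over all genes, and 0.01 after median centring), and voom called 0 members. At an unadjusted p under 0.05, 3 members were higher, where 2.8% of all genes were, and 4 lower, where 6.45% were. SLC2A1 had a log2 change of 0.24 (SE 0.05, 1.18-fold, 95% interval 0.12 to 0.37), LDHA of 0.21 (SE 0.04, 1.15-fold, interval 0.1 to 0.31) and PKM of 0.115 (SE 0.04, 1.08-fold, interval 0.02 to 0.21). The adjusted p was 0.453 for SLC2A1 and LDHA and 0.502 for PKM. These genes take up glucose, make lactate and make pyruvate, in that order. The lower ones were SLC2A12, a minor carrier (-0.38, SE 0.11), ALDOC (-0.30, SE 0.10), ENO2 (-0.17, SE 0.07) and PDK2 (-0.20, SE 0.08), with adjusted p of 0.502, 0.502, 0.526 and 0.525. The largest fitted changes in the remaining roles were those of SLC2A6 (-0.43, SE 0.20, adjusted p = 0.554), HK1 (0.05), PFKFB4 (-0.18), ENO3 (-0.25) and PDK3 (-0.26). PDK3 was at 1.14 and 1.38 RPKM at 25 mM and at 0.845 and 0.927 RPKM at 25 to 50 mM. In this fit it thus reached the filter of 1 RPKM only at 25 mM. The filter favoured its negative change, which is among the 21. Without 25 to 50 mM replicate 2, limma called LDHA higher (0.22, adjusted p = 0.0403) and SLC2A6 lower (-0.76, adjusted p = 0.0074), and 777 of all genes in place of 1, with the spread taken from the 25 mM pair alone.

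**Figure D3:**
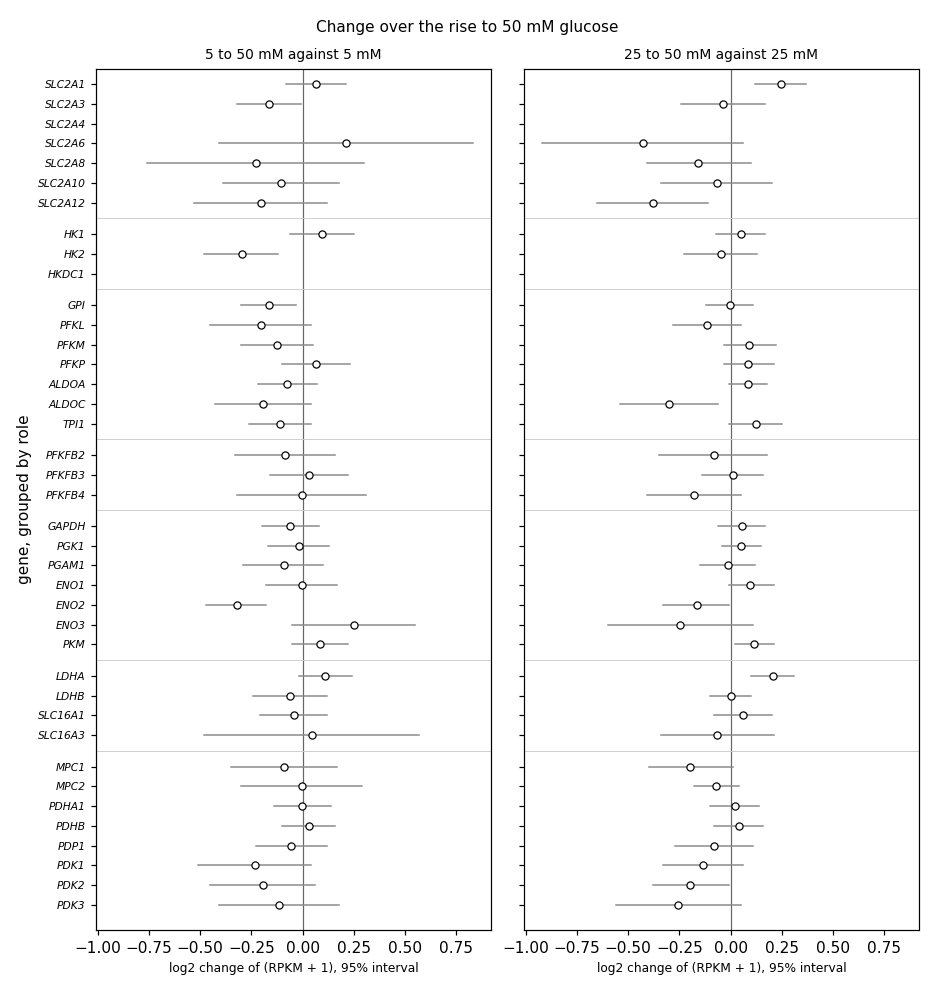
Log2 change of (RPKM + 1) over the rise to 50 mM, with its 95% interval, from 5 mM (left) and from 25 mM (right), for each member by role; open points did not pass. In no panel is a point filled, and the widest intervals are those of SLC2A6.

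Whether the rises differ was tested as an interaction over all 8 libraries. The rises added 45 mM glucose from 5 mM and 25 mM glucose from 25 mM. Maintenance glucose and the size of the step therefore cannot be told apart in this test. Of 37 members 0 were called, where 0.0251% of 11941 genes were, and at an unadjusted p under 0.05 there were 6 higher and 1 lower, against 2.29% and 3.74% of all genes. The 6 with a more positive change from 25 mM were SLC2A1 (0.18, SE 0.07), HK2 (0.25, SE 0.09), GPI (0.16, SE 0.06), PFKM (0.21, SE 0.08), ALDOA (0.16, SE 0.07) and TPI1 (0.23, SE 0.08), and the 1 with a more negative change was ENO3 (-0.50, SE 0.19). Their adjusted p lay between 0.772 and 0.809. Voom called 0 members here too.

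Within enzyme families the balance of isoforms, as shares of summed RPKM and thus per length, differed between groups. HK2 made up 15.6% and 17.3% of hexokinase RPKM at 5 mM, 12.7% and 13.2% at 5 to 50 mM, 11.9% and 11.7% at 25 mM and 11.2% and 11.1% at 25 to 50 mM. The share was highest at 5 mM without overlap with the other groups. LDHA made up 50.4% and 52.2% of the lactate dehydrogenase sum at 5 mM and 54.0% and 54.4% at 5 to 50 mM, and 49.4% and 49.4% at 25 mM and 52.9% and 53.0% at 25 to 50 mM, higher after either rise. PDK3 held 11% and 11.8% of the kinase sum at 5 mM, 12.7% and 11.3% at 5 to 50 mM, 4.4% and 5.05% at 25 mM and 3.74% and 3.92% at 25 to 50 mM. ENO2 held 3.3% and 3.49% of enolase RPKM at 5 mM and 2.77% and 2.69% at 5 to 50 mM. The ENO2 share was 1.79% and 2.04% at 25 mM and 1.65% and 1.54% at 25 to 50 mM. SLC2A3 held 25.5% and 23.2% of the 7 transporters at 5 mM and 21.8% and 21.6% at 5 to 50 mM. The SLC2A3 share was 18.3% and 18.5% at 25 mM and 15.4% and 18.5% at 25 to 50 mM. The phosphofructokinase sum did not follow the other enzymes, at 294 and 319 RPKM at 5 mM and 322 and 317 RPKM at 25 mM, with PFKP at 58% and 59.5% and at 62.7% and 62.5%. Shares were not tested, and they inherit the replicate differences of their members.

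**Figure D4:**
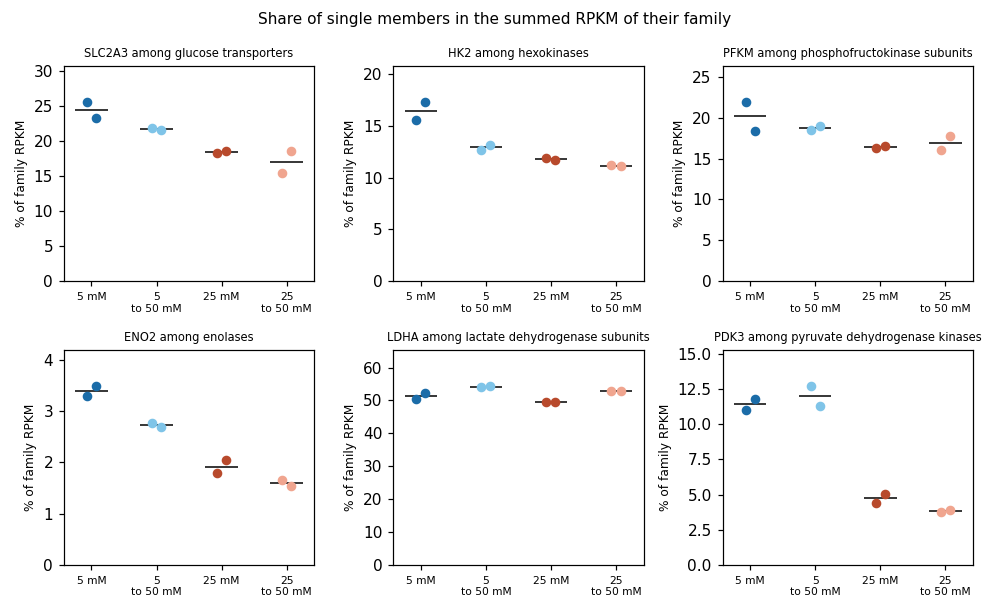
Share (%) of 6 members in the summed RPKM of their family, with 1 point per library and a bar at each group mean. PDK3 has group means of 11.4% and 12% in cells kept at 5 mM and of 4.72% and 3.83% in cells kept at 25 mM, and LDHA has a higher share at 50 mM (54.2% and 52.9%) than in the matching control (51.3% and 49.4%).

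Neighbouring pathways were described by 5 further lists of genes. In both rises limma called 0 genes of any of them. Of all genes tested, 17% were higher and 22.1% lower at 25 against 5 mM, and no list was tested against these shares. At 25 against 5 mM, 3 of 20 tested genes of uptake, glycolysis and pyruvate fate outside the 39 were higher and 6 lower (median -0.05), among them PDP2, the other phosphatase of pyruvate dehydrogenase, which was at 11.6 and 10.5 RPKM at 5 mM and 5.82 and 5.74 RPKM at 25 mM (0.562-fold, adjusted p = 0.000628). PC, pyruvate carboxylase, which makes oxaloacetate from pyruvate, was higher, at 5.37 and 6.45 against 10.5 and 10.9 RPKM (1.7-fold, adjusted p = 0.000524), and SLC2A13, a proton myo-inositol carrier, lower, at 2.55 and 2.35 against 1.06 and 1.08 RPKM. SLC2A5, a scarce fructose carrier, was lower too, at 1.45 and 1.12 against 0.471 and 0.463 RPKM. So was GCKR, the scarce glucokinase regulator, at 1.01 and 1.01 against 0.279 and 0.274 RPKM. SLC2A5 and GCKR reached the filter of 1 RPKM only in libraries from 5 mM. The filter thus favoured their lower calls, which are among the 6, and their ratios of RPKM, larger than that of PDP2. Of 13 genes of gluconeogenesis and glycogen 3 were higher and 4 lower, among them GYS1, glycogen synthase, at 1.39-fold, GYG1, glycogenin, at 1.26-fold and PGM2 at 0.806-fold. In the pentose phosphate list 3 of 10 were higher and 1 lower. PRPS1, which makes the ribose donor for nucleotides, was at 205 and 186 RPKM at 5 mM and 349 and 345 RPKM at 25 mM (1.78-fold, adjusted p = 3.26e-05), TKT, transketolase, at 1.29-fold and PRPS2 at 1.27-fold. Of 17 tricarboxylic acid cycle genes 6 were higher and 4 lower, among them OGDH (1.35-fold) and DLST (0.818-fold), and of 8 genes of the NADH shuttles 2 were higher and 1 lower, GPD1L (1.27-fold), GOT2 (1.13-fold) and MDH1 (0.851-fold).

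At 50 mM the same lists gave 4 higher and 6 lower of 20, 4 and 4 of 13, 3 and 1 of 10, 6 and 3 of 17 and 2 and 1 of 8. Of all genes tested, 18.1% were higher and 23.3% lower there. SLC2A5 and GCKR, whose lower calls the filter favours, are among the 6. SLC2A13 was at 3.04 and 3.1 RPKM after 5 mM and 1.07 and 1.23 RPKM after 25 mM, and folds of RPKM + 1 put PDP2 at 0.558-fold, PRPS1 at 1.81-fold, OGDH at 1.41-fold and GYG1 at 1.37-fold. The medians of the 5 lists lay between -0.05 and 0.07, those at 25 against 5 mM between -0.05 and 0.04, and the members' medians at -0.21 and -0.23. These lists were not tested against the members.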

How the data were processed

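The authors deposited 2 tables of RPKM values, 1 for each maintenance glucose, per the file headers with 1 column per library. STAR and hg38 are listed in the submitters' processing notes. The counting tool, annotation, strand setting and STAR version are not given in the sources used here. Per the labels' protocols, total RNA was extracted with TRIzol and made into Illumina libraries.

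Both tables were joined on gene number. Whole reads were recovered from the steps of the RPKM values, within 0.001 reads, for 100% of 16297 genes above 0, which gave the depths. Upper quartiles of RPKM differed between libraries by up to 1.065 times, under the limit of 1.5 set for comparing across tables. Values were tested as log2(RPKM + 1), which understates changes of low genes, over genes that reached 1 RPKM in 2 or more of the fitted libraries, using R 4.3.3 and limma 3.58.1 (its moderated test, two-sided, with a trend, Benjamini-Hochberg over all genes tested, threshold 0.05). Rises were fitted on their own 4 libraries and the other comparisons on all 8 with 1 shared spread. Intervals of log2 changes are 95% intervals of the fit, and the 3-read floor covers counting error only.

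Values in every library are given for members called in any comparison, for the most abundant member of each role, and for that with the largest change in each rise. The members and lists were chosen with earlier results of these data known. Alternatives were pseudocounts of 0.1 and 0.5, no filter on low values, a mean RPKM of 5 or more, quantile normalization, median centring, no trend, robust estimation, voom on recovered reads, each library left out, a joint fit, a replicate block and, added after the data were seen, a correction for transcript GC content. Gene positions and promoters are RefSeq's on GRCh38.p14.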

Additional observations from a re-analysis of the deposited data

How the results depend on the processing

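No alternative other than leaving out a library moved a count of members called by over 1.5 times. With 1 library left out, the count ran from 0 to 4 in the rise from 5 mM, 0 to 2 in the rise from 25 mM, 0 to 0 for the difference between the rises, 13 to 25 at 25 against 5 mM and 15 to 23 at 50 mM; the group left with 1 library was assumed to vary like the others. Of the calls, 12 of 21 at 25 against 5 mM and 14 of 19 at 50 mM held in every alternative that tested them. Those lost at least once were GPI, PFKM, TPI1, PFKFB3, PFKFB4, GAPDH, PKM, LDHB and MPC1, and at 50 mM ALDOA, PFKFB3, GAPDH, LDHB and MPC1. GAPDH was lost only under quantile normalization. Reversed were GAPDH after quantile normalization, at 0.08 in both comparisons, and SLC2A8 from 5 to 50 mM without 5 mM replicate 3, at 0.05 (-0.51 to 0.05 over the libraries left out).

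The rises could not be fitted with a replicate block within their own 4 libraries, since the groups share 1 number. With replicate number as a block over all 8 libraries, 0 members were called in both rises and in their difference, 15 at 25 against 5 mM (14 lower) and 18 at 50 mM (17 lower). The deviations of replicates 1 and 3 correlated between 5 mM and 25 mM (r = 0.31 over 9661 genes), the only groups that share 2 numbers, which is too few pairs to take the numbers as pairs.

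Over all genes, the 39 calls from 5 to 50 mM became 0 without trend, without the filter or with the block, 60 with median centring, 61 with quantile normalization, 130 in the joint fit, 94 after GC correction and 0 to 805 with a library left out. From 25 to 50 mM the 1 call became 0 to 7 under the other alternatives and 777 without 25 to 50 mM replicate 2, and the 3 calls of the difference became 0 to 6. At 25 against 5 mM the count was 4671, and 3024 without 25 mM replicate 1. At 50 mM it was 4946, and 3177 without 5 to 50 mM replicate 1. Depth limits SLC2A4, at 1 to 14 reads, while HKDC1, at 38 to 65 reads, was left out by the filter of 1 RPKM.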

Other observations

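The members differed between the 2 libraries of a group along with the GC content of their transcripts, most at 5 mM and at 25 to 50 mM. Replicate 3 minus replicate 1 at 5 mM had a Spearman rho with transcript GC of 0.57 over 9718 genes at 5 RPKM or more, and of 0.65 over 33 members, as a description across genes of the same 2 libraries. The difference ran from -0.19 for PDK1 to 0.74 for SLC2A6, on the log2 scale. At 25 to 50 mM, replicate 3 minus replicate 2 had a rho of -0.44 over 9352 genes and -0.5 over 31 members, with SLC2A6 lowest at -0.65 and MPC1 highest at 0.22. At 5 to 50 mM and at 25 mM rho was -0.09 and -0.04 over all genes and -0.3 and -0.11 over 33 and 32 members. SLC2A6, with 64.1% GC, and SLC16A3, with 65.6% GC, are the members with the most GC, and PDK1 has 43.1%.

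Between group means, rho with transcript GC was -0.04 for 25 minus 5 mM, -0.14 for the groups at 50 mM, 0.0 for the rise from 5 mM and -0.21 for the rise from 25 mM, over 9603 genes. After the GC correction 24 members were called at 25 against 5 mM (21 lower) and 21 at 50 mM (18 lower), and 0 in either rise. The same correction lost the calls of GPI and PKM at 25 against 5 mM and of ALDOA at 50 mM.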
